A study of Mus musculus with 22 samples.

Results

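The CB6F1/J hybrid mouse carries 1 chromosome set from BALB/cJ and 1 from C57BL/6J in every nucleus, so that H3K27ac ChIP–seq of its Kupffer cells gives a reading of both alleles in the same cells. The table of the hybrid lists 217456 regions of 200 bp, of which 213225 are autosomal. Only 19.4% of the autosomal regions (41264) held an allelic count above 0, that is, a tag from a read that spans a base at which the strains differ and matches 1 of the 2 genomes perfectly. The regions described here are the 7013 autosomal ones whose allelic counts summed to at least 60 over the 6 columns (2 alleles in 3 animals); they are 3.29% of the autosomal regions and hold 74.1% of the autosomal allelic counts. Regions just inside the limit had sums from 60, and the highest sum left out was 59.5, with 243 regions at sums of 60 to 62.5 and 279 at 57 to 59.5. The study compared Kupffer cells of inbred strains and of this hybrid, and the parental counts are not used here.

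The 3 samples are H3K27ac ChIP–seq libraries of sorted Kupffer cells (macrophages that reside in the sinusoids of the liver) from 3 untreated control CB6F1/J animals bred from a BALB/cJ mother and a C57BL/6J father. The study's methods describe male mice of 8 to 12 weeks. No treatment was given to these animals, and both alleles therefore shared age, cell, nucleus and handling. Because the cross was made in 1 direction, the BALB/cJ allele was always maternal, and strain and parent of origin cannot be told apart. Nothing beyond the label separates the animals into cultures or litters, so that p-values measure the spread between these 3 animals.

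H3K27ac is an acetyl mark on histone H3 that sits on the nucleosomes beside active promoters and enhancers. A sequence variant that acts in *cis*, for example by altering the binding site of a macrophage factor such as PU.1, an AP-1 dimer, C/EBP or MAF, affects only the chromosome that carries it. A difference in *trans*, such as a circulating hormone or the amount of a transcription factor, reaches both alleles of a hybrid cell alike. A difference between the alleles of 1 nucleus is thus read as *cis*, with imprinting as the known exception.

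The C57BL/6J sequences of 6 regions are shown because they rank among the widest separations of all regions (H2-Ea-ps, Arid5b and the Fblim1 intron) or of promoters (Pxmp4, Fblim1 and Gsr). They were read from the plus strand of GRCm38, which is the C57BL/6J genome and the build (mm10) of the deposited coordinates. Capitals mark the only matches to 9 motifs searched on both strands, a GAAANNGAA motif of the IRF family in the Arid5b region and a TGANTCA motif of AP-1 in the Fblim1 promoter. The BALB/cJ sequence was not used here.
H2-Ea-ps upstream, chr17:34346484-34346684: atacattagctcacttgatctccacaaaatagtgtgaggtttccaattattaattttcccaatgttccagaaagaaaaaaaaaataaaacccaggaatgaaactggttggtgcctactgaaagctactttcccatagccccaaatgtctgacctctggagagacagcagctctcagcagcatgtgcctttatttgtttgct
Arid5b intron, chr10:68204271-68204471: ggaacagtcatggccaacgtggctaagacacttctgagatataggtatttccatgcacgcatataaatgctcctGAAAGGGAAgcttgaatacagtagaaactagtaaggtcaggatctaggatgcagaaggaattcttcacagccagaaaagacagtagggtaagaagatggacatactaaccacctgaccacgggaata
Pxmp4 promoter, chr2:154604253-154604453: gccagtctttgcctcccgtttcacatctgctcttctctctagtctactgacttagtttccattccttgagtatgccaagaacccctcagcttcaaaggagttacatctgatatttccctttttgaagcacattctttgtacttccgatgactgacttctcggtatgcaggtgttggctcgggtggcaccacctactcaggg
Fblim1 intron, chr4:141605456-141605656: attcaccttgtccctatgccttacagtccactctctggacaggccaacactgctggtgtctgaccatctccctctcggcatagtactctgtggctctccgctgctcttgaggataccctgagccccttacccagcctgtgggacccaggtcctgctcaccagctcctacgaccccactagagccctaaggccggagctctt
Fblim1 promoter, chr4:141605993-141606193: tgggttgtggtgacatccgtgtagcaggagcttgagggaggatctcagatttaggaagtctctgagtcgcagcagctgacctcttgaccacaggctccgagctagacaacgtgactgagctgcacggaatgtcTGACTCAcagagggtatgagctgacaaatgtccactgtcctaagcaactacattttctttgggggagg
Gsr promoter, chr8:33652928-33653128: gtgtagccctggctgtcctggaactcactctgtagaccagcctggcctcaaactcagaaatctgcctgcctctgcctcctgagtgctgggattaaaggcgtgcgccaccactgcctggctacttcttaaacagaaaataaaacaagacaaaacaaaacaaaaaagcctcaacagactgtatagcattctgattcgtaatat
The first 3 regions carried more H3K27ac on the BALB/cJ allele and the other 3 more on the C57BL/6J allele. In the Gsr promoter region, 85.1% of the bases are marked as repeats in the reference, against a mean of 14.1% over the 7013 regions, and the stretch reads like a B1 short interspersed element. In the other 5 regions at most 17.9% of the bases are so marked.

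Depth and balance were assessed first. The autosomal allelic counts were 181377.5 on BALB/cJ and 189772.5 on C57BL/6J in animal 1, 378570.5 and 400395 in animal 2, and 283186 and 301310 in animal 3. Animal 2 thus gave about the same number for each allele that animal 1 gave for both together. The BALB/cJ share was 48.9% in animal 1 (95% Wilson interval 48.7 to 49.0), 48.6% in animal 2 (48.5 to 48.7) and 48.4% in animal 3 (48.3 to 48.6), all slightly below an even split. These intervals, like the others given below, cover counting error only. After TMM scaling the median log2 ratio of BALB/cJ over C57BL/6J was 0.03 over the 7013 regions, with the central 90% between -1.6 and 1.34. Without any scaling between the alleles it was -0.027. A typical region held 124 allelic counts in all (median), 3642 regions held at least 120 and 1480 at least 240.

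The cells were checked against marker genes through all perfectly matching tags, allelic or not, on the C57BL/6J genome. The regions at 12 Kupffer cell genes, among them Clec4f, Vsig4, Timd4, Cd5l and Marco, took 0.29% to 0.322% of these tags in the 3 animals, and each of the 12 genes had tags. The markers of sinusoidal endothelial cells took 0.026% to 0.0305% over 5 genes, those of monocytes and neutrophils 0.0217% to 0.034% over 5, of T and NK cells 0.013% to 0.0145% over 5 and of dendritic cells 0.0102% to 0.0124% over 4. Hepatocyte genes took 0.00995% to 0.0134% over 5, with no region or tag at Serpina1a or Cyp2e1. B cell genes took 0.00323% to 0.0047% over 4, with none at Cd79a or Pax5, and stellate cell genes took 9.54e-05% to 0.000632% over 5. These sums follow the number of regions, 414 at the Kupffer cell genes and 9 to 101 in the other lists. Per region the Kupffer cell genes took 0.000701% to 0.000778% and the monocyte and neutrophil genes (32 regions) 0.000677% to 0.00106%, whereas the other lists took at most 0.000346%. Only 5 tested regions lay at a gene of these other cell types, and none differed between the alleles at an unadjusted p under 0.05. The part of other cells in the allelic ratios was not tested.

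The X chromosome gave a measure of error, because a male hybrid has no C57BL/6J X chromosome. C57BL/6J tags made up 9.95% of the X-linked allelic tags in animal 1 (141 of C57BL/6J and 1276 of BALB/cJ; Wilson interval 8.5 to 11.6), 9.77% in animal 2 (286 and 2642; 8.74 to 10.9) and 9.67% in animal 3 (222.5 and 2079; 8.5 to 10.9). All 3 animals gave the same share within counting error. Among the 28 X-linked regions with a sum of at least 60, the share was 5% or less in 18 regions and 0 in 7, with a median of 1.07%. It exceeded 20% in 7 regions, which held 87.7% of the C57BL/6J tags of the 28. At the Rbbp7 promoter the BALB/cJ counts were 38, 76.5 and 47.5 and the C57BL/6J counts 34, 77.5 and 44.5 in animals 1, 2 and 3. At the Cenpi promoter they were 50.5, 98.5 and 63 against 0, 0 and 0. In the 235 X-linked regions with a lower sum above 0, C57BL/6J had 209.5 tags and BALB/cJ 2690, a share of 7.23%, so that tags of the absent allele also occurred outside these 28 regions.

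**Figure D1:**
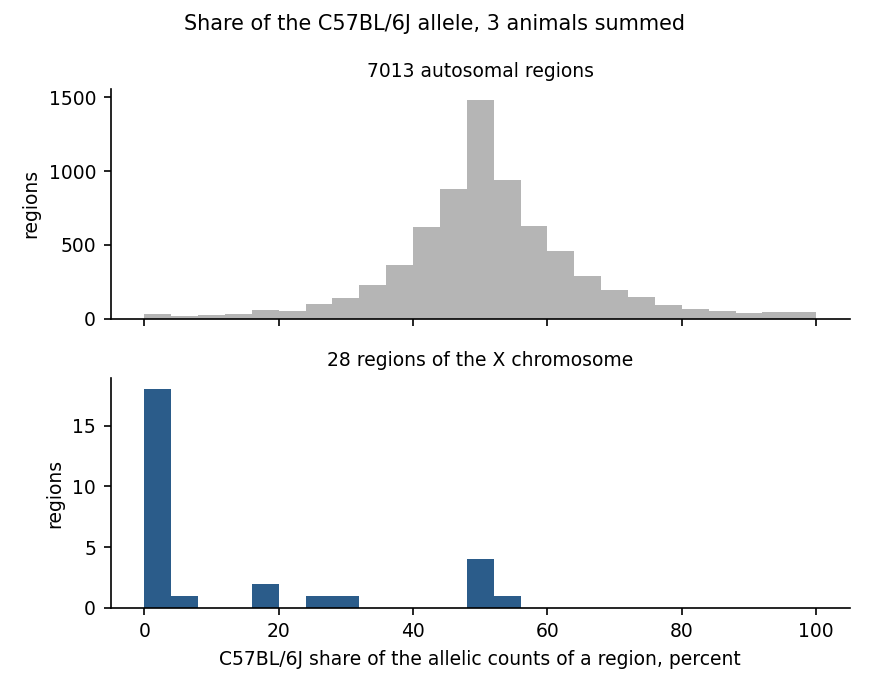
Histogram of the C57BL/6J share of a region's allelic counts (x axis, percent, 3 animals summed) against the number of regions (y axis), for the 7013 autosomal regions (top) and the 28 X-linked regions with a sum of at least 60 (bottom). The autosomal regions centre near an even share, whereas 18 X-linked regions lie at 5% or less and 7 lie above 20%.

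The same kind of region occurred on the autosomes. In 55 of the 7013 regions (0.784%) the counts of both alleles were identical in all 3 animals, and in 166 (2.37%) they lay within 1 of each other in all 3. The region of highest sum among them, in an intron of Colgalt1, read 71, 185.5 and 129.5 on each allele, and a promoter region of Gnas read 9, 30 and 34 on each. Equal counts of this kind leave no spread between alleles within an animal. Regions with them were kept in the tests, and the count of calls without them is given where it differed.

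The question of the hybrid is at which regions H3K27ac differs between the alleles. In edgeR's quasi-likelihood test with the animal as a block (|log2| above 1 and a Benjamini-Hochberg adjusted p under 0.05), 0 of 7013 regions were called (0.0%). The lowest adjusted p was 0.119, although 1143 regions (16.3%) had an unadjusted p under 0.05, 509 of them (7.26%) with more H3K27ac on the BALB/cJ allele and 634 (9.04%) with more on the C57BL/6J allele. DESeq2 with the same block and thresholds called 506 regions (7.22%), of which 199 (2.84%) were higher on BALB/cJ and 307 (4.38%) on C57BL/6J. edgeR without the block called 442, and 430 regions were called by both DESeq2 with the block and edgeR without it. Without the 166 regions whose counts lay within 1, the blocked edgeR test called 130. With the adjusted deviances that edgeR offers it called 146, all of them among the DESeq2 calls. The 506 DESeq2 calls also rest on each animal: 294 regions were called without animal 1, 105 without animal 2 and 140 without animal 3, and 59 of the 506 were called in each of these 3 fits. Whenever a region is said below to be higher on 1 allele, DESeq2 with the block called it, and the blocked edgeR test did not.

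**Figure D2:**
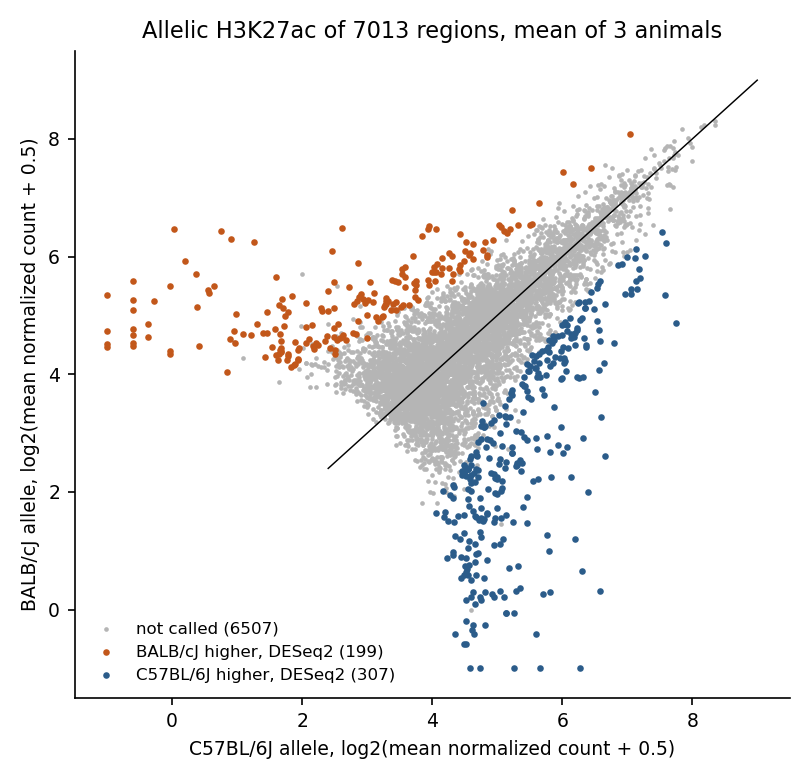
Mean normalized allelic count of each of the 7013 regions on the C57BL/6J allele (x axis) and the BALB/cJ allele (y axis), both as log2(mean of 3 animals + 0.5), with the line of equality. Orange points are the 199 regions called higher on BALB/cJ and blue points the 307 called higher on C57BL/6J by DESeq2, and they flank a grey body of 6507 regions, down to regions with almost no count on 1 allele.

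The animals resembled each other, though imperfectly. The log2 ratios of a region in 2 animals had a Pearson r of 0.462 for animals 1 and 2, 0.481 for 1 and 3 and 0.613 for 2 and 3, across 7013 regions that are not independent. The ratio pointed the same way in all 3 animals in 2969 regions (42.3%) and in 505 of the 506 called ones. In 1510 regions (21.5%) the 3 normalized counts of 1 allele all exceeded the 3 of the other, in 701 with BALB/cJ above and in 809 with C57BL/6J above. Of the 506 calls, 485 were among them. The calls were made on these same counts, so both shares of the 506 follow largely from the calling. A ratio over 2-fold in the same direction in each animal was found in 537 regions (7.66%), 223 toward BALB/cJ and 314 toward C57BL/6J. Animal 1, the shallowest library, was the least like the others.

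When regions were picked on 1 animal alone, the other 2 showed how much of the ratio recurred. Of the 211 regions over 4-fold toward BALB/cJ in animal 3, 79.6% pointed the same way in both other animals and 56.4% exceeded 2-fold in both, with a median log2 ratio of 1.87 there. Toward C57BL/6J, 85.9% of 297 regions did so, with a median of -2.34. Picking on animal 1 instead gave 484 and 590 regions, of which 56.0% and 63.7% pointed the same way in animals 2 and 3. At over 8-fold in animal 3, 91.1% of 79 regions toward BALB/cJ and 94.8% of 134 toward C57BL/6J kept their direction in the other animals. The variance of the BALB/cJ share between animals was on average 2.7 times the binomial counting variance, and 2.59 to 2.87 times across low, middle and high sums. The median ratio was lower, 1.79 over all regions and 1.76 to 1.82 across the same sums. The animals thus differed by more than counting error at every depth. The median standard error of the log2 ratio in DESeq2 fell from 0.69 at sums of 60 to under 120 to 0.26 at 480 and more.

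Regions with the widest separation were named by rank of the log2 ratio among the called regions whose counts did not overlap, with a mean of at least 50 normalized counts on the higher allele. Counts are given as deposited, in the order animal 1, 2 and 3. Log2 ratios and their standard errors (SE) are those of the blocked edgeR fit, with the SE derived from its F statistic. A DESeq2 adjusted p belongs to the log2 ratio of DESeq2, which can differ (4.56 against 4.12 at Arid5b below). It also rests on all 3 animals: of the 37 regions named for their size, DESeq2 called 19 in each fit without 1 animal. Toward BALB/cJ the first was an intergenic region at -1939 bp from the start of H2-Ea-ps (chr17:34346484-34346684), the gene of the class II alpha chain of the E molecule, which mice of the C57BL/6J haplotype are known not to express. Its BALB/cJ counts were 33.5, 158 and 89.5 and its C57BL/6J counts 0, 1.5 and 0.5. The ratio of the sums was 140-fold with an exact counting interval of 38.5 to 1170 (DESeq2 adjusted p = 2.63e-09), and the perfectly matching tags of any kind were 282.5 on the BALB/cJ genome and 2.5 on the C57BL/6J genome. Almost no read of this region was assigned to C57BL/6J in any animal. Without animal 2, DESeq2 did not call the region (adjusted p = 0.505).

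Next came a region near Adamtsl4 (chr3:95674921-95675121), a protein of the extracellular matrix, with 43.5, 132.5 and 63 counts on BALB/cJ and 2.5, 0 and 0 on C57BL/6J (DESeq2 adjusted p = 0.000915). A region in intron 3 of Arid5b (chr10:68204271-68204471), which encodes an AT-rich-interaction DNA-binding protein, read 78.5, 77.5 and 78.5 against 7, 7 and 0.5, a log2 ratio of 4.12 ± 0.65 (SE, n = 3; DESeq2 adjusted p = 0.00248). In neither region did the alleles overlap in any animal. Upstream of Ada, adenosine deaminase, the counts were 41.5, 59.5 and 90.5 against 1, 8 and 8 (log2 3.58 ± 0.41). A region near Tbc1d9, a member of the family of Rab GTPase-activating proteins, read 40.5, 67 and 59 against 6, 6 and 6.5 (log2 3.21 ± 0.27). Regions at Tor3a, Lnx2 and Emilin2 completed the 8, at log2 ratios of 2.48, 2.43 and 2.24, each with every BALB/cJ count above every C57BL/6J count.

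Toward C57BL/6J the first ranks were exon 2 of class I histocompatibility genes. The region listed under H2-L (chr17:35263527-35263727) had no BALB/cJ count in any animal and 60, 80 and 78 on C57BL/6J. It was at least 72.7-fold higher there when the BALB/cJ sum is set at 3 counts over the 3 animals. DESeq2 did not call this region in the fits without animal 1, 2 or 3 (adjusted p = 0.327, 0.423 and 0.446). Its start site in the annotation is nearly that of H2-D1, so both labels stand for the same place on the C57BL/6J genome. In H2-K1 (chr17:33999634-33999834) the counts were 0, 3 and 0 against 56, 139 and 98 (ratio 97.7, interval 33.1 to 476). These genes belong to a family of near-identical copies in which the strains differ at many bases, and a read that fits neither genome perfectly was dropped by the authors, so that both values are uncertain. The BALB/cJ genome had 214 perfectly matching tags in the H2-L region and 6 in the H2-K1 region, against 412 and 299 on the C57BL/6J genome.

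Outside the histocompatibility complex, both tested regions of Fblim1, which encodes a filamin-binding LIM protein of cell adhesion, were higher on C57BL/6J. In intron 1 (chr4:141605456-141605656) the BALB/cJ counts were 0, 1 and 2.5 and the C57BL/6J counts 51, 107.5 and 77.5, a log2 ratio of -6.09 ± 0.48 (DESeq2 adjusted p = 7.11e-09). In its promoter, at -41 bp from the start site, they were 3.5, 4.5 and 3.5 against 31.5, 83 and 60.5 (log2 -3.72 ± 0.35). The alleles of Fblim1 were thus far apart at both places in every animal. A region 30117 bp from Trim25, a ubiquitin ligase of RIG-I signaling, read 2, 0 and 2 against 59, 90 and 59.5 (log2 -5.51 ± 0.6). The Tbl3 promoter read 2, 1.5 and 0 against 45.5, 44.5 and 61 (log2 -5.05 ± 0.63). Regions listed under Mir1963 and Mir5131 followed the same pattern, at log2 ratios of -5.51 and -4.46.

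The region at -11101 bp from the start of Lgals3, the galectin-3 gene of macrophages, read 1.5, 2 and 6.5 on BALB/cJ and 80.5, 73.5 and 71 on C57BL/6J (log2 -4.4 ± 0.41, DESeq2 adjusted p = 2.58e-10). Of the 14 tested regions listed under Lgals3, 3 were called and they did not share a direction. A neighbour at -11970 bp was also higher on C57BL/6J (41, 75.5 and 62 against 89, 203.5 and 131.5), and one at -15472 bp was higher on BALB/cJ (22.5, 33.5 and 18.5 against 2.5, 9 and 5). The alleles did not overlap in any of the 3.

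**Figure D3:**
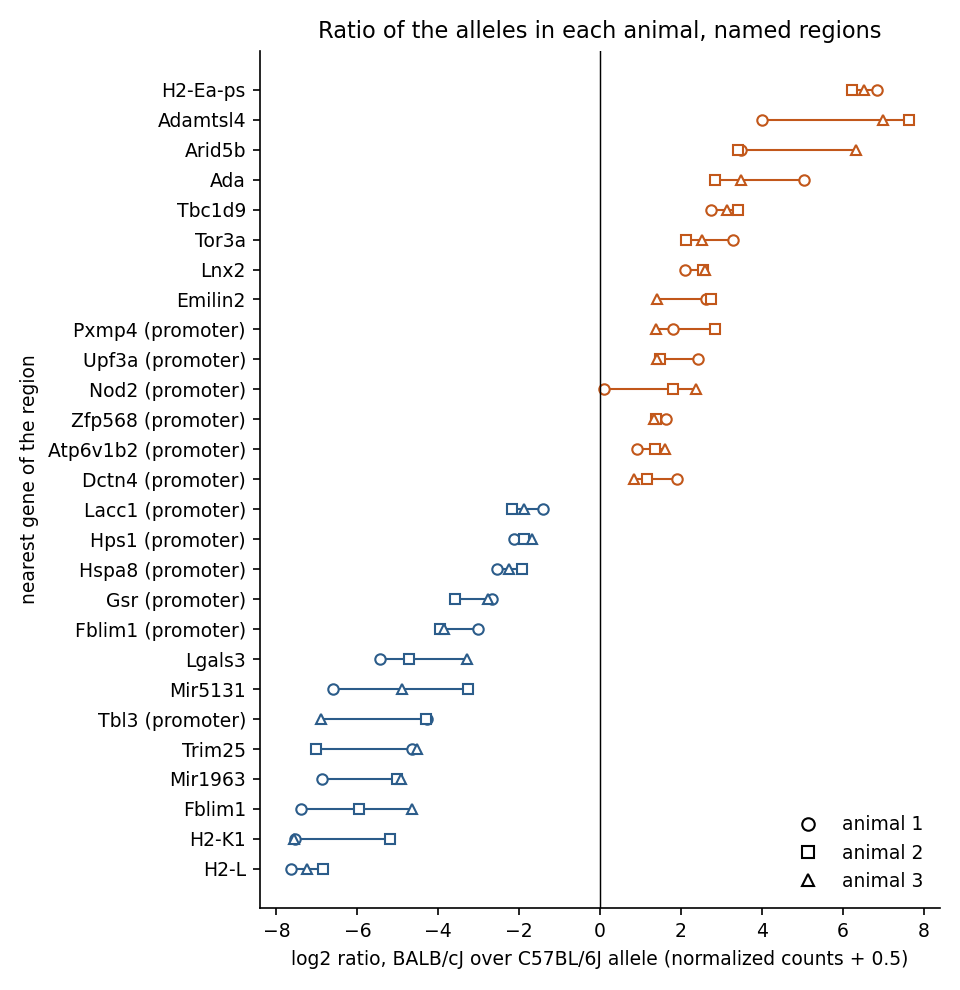
Log2 ratio of the BALB/cJ over the C57BL/6J allele (x axis, normalized counts + 0.5) in each of the 3 animals (circle, square, triangle) for the regions of widest separation and the promoters named in the text (y axis, nearest gene), with a line from the lowest to the highest animal. All animals lie on the same side of 0 in every region, with animal 1 close to 0 at the Nod2 promoter only.

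Promoter regions were ranked in the same way. Toward BALB/cJ the first was the promoter of Pxmp4, a peroxisomal membrane protein, with 65.5, 116 and 53.5 counts on BALB/cJ and 19, 16.5 and 21 on C57BL/6J (log2 2.06 ± 0.35, DESeq2 adjusted p = 2.6e-05). The promoters of Upf3a (log2 1.67, nonsense-mediated decay), Zfp568 (1.44, a zinc finger repressor), Atp6v1b2 (1.32, a subunit of the lysosomal proton pump) and Dctn4 (1.27, dynactin) followed at smaller ratios. Those of Upf3a and Dctn4 were not called in any DESeq2 fit that left out an animal. The promoter of Nod2, the intracellular sensor of muramyl dipeptide, read 31, 104 and 102 against 30, 30.5 and 20. It was called by DESeq2 (log2 1.48 and adjusted p = 0.00996, both from DESeq2), but the deposited counts of animal 1 were almost equal.

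Toward C57BL/6J, after Tbl3 and Fblim1, came the promoter of Gsr, glutathione reductase, with 24.5, 16.5 and 32.5 counts on BALB/cJ and 163.5, 213.5 and 232 on C57BL/6J (log2 -3.03 ± 0.23). It had the lowest DESeq2 adjusted p among the named regions (8.94e-22). All 7 tested regions of Gsr had more counts on C57BL/6J, and a region in its intron was also called (14, 38 and 18 against 56, 149.5 and 92). At the promoter of Hspa8, the constitutive HSC70 chaperone, the counts were 16.5, 64 and 46 against 101, 258.5 and 231 (log2 -2.22 ± 0.17, DESeq2 adjusted p = 1.24e-13). Listed under the same gene, regions at -56862 and -56500 bp were called higher on BALB/cJ, at log2 ratios of 2.33 and 2.9. A region at 937 bp from its start had a log2 ratio of -0.05. The promoters of Hps1, required for lysosome-related organelles, and Lacc1, a laccase-domain enzyme of macrophages, each had a log2 ratio of -1.88.

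Regions higher on the same allele came in groups along the chromosome. Listed under Malt1, the paracaspase of NF-kB signaling, 5 of 9 tested regions were called higher on BALB/cJ and all 9 had a ratio above 0. The 5 lay within 9459 bp, more than 60 kb from the gene's promoter regions, whose log2 ratios were 0.26 and 0.06. Lnx2, which encodes a ubiquitin ligase that binds Numb, had 4 of 6 called toward BALB/cJ over 13503 bp, and Emilin2, a matrix glycoprotein, 4 of 8 over 24192 bp, with all regions of both genes above 0. In the strongest Lnx2 region the counts were 18.5, 38 and 42 on BALB/cJ and 0, 0 and 0.5 on C57BL/6J.

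Toward C57BL/6J, 6 of 9 regions listed under Mir331 were called and all 9 had a ratio below 0, over 21964 bp. Its region of lowest p read 2.5, 2.5 and 6 on BALB/cJ against 36, 38 and 55.5. Fcrl1, an Fc receptor-like gene, had 4 of 5 regions called over 24827 bp, and the strongest by count read 5.5, 4 and 4.5 against 46.5, 150 and 124. Cd5l, a scavenger protein secreted by Kupffer cells, is its neighbour on chromosome 3. At Cd5l the regions at -31662 and -6694 bp from the start were higher on C57BL/6J (2, 2.5 and 2.5 against 14, 32.5 and 40, and 0, 6 and 2.5 against 18.5, 52 and 25), and a region in its intron 1 was higher on BALB/cJ (79, 152.5 and 111.5 against 27.5, 60.5 and 63.5). The direction therefore changed within the Cd5l locus. Ly6e and Gcnt1 had 4 of 19 and 4 of 16 regions called toward C57BL/6J, with 12 of the regions of each below 0. Dhx34, Hgsnat, Gm17745, Myl12b and Gm7160 had 3 called regions each, with none called the other way.

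Over all pairs of called regions, both members had the same higher allele in 54 of 54 pairs under 1 kb apart (100%), 58 of 61 at 1 to 5 kb (95.1%), 40 of 51 at 5 to 20 kb (78.4%), 106 of 135 at 20 to 100 kb (78.5%) and 222 of 435 at 100 to 1000 kb (51.0%). The share was thus highest for the closest pairs, alike at 5 to 20 and 20 to 100 kb, and near an even split beyond. At an unadjusted p under 0.05 in edgeR the shares were 88.6%, 83.5%, 75.0%, 65.8% and 50.2% over the same distances. Among all 7013 regions they were 59.4%, 54.5%, 51.4%, 50.9% and 50.3%. Regions under 1 kb apart can share a nucleosome array and reads of 1 fragment, and pairs share members, so that no test was made. If the counts cover the window of 1000 bp stated in the methods, such regions also count some of the same tags.

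**Figure D4:**
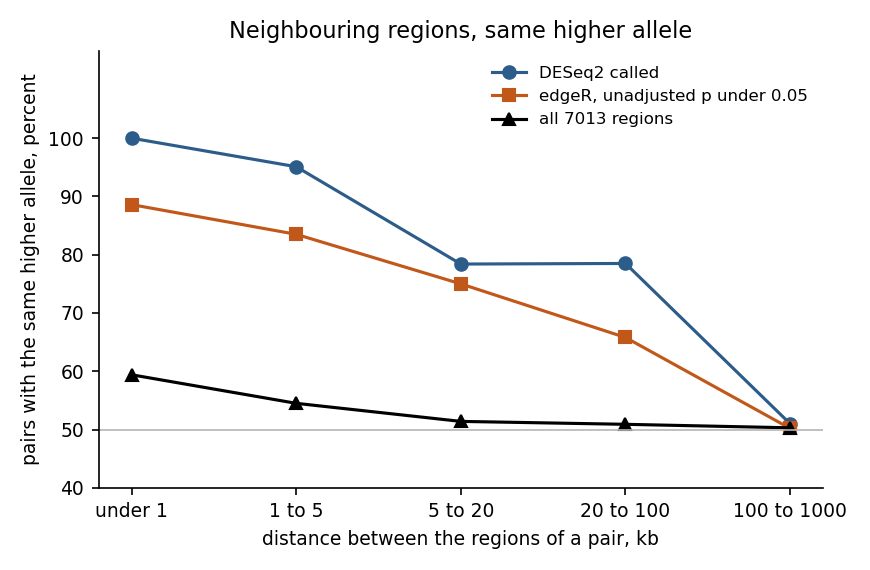
Percent of pairs of regions with the same higher allele (y axis, from 40) by the distance between the regions (x axis, kb), for the DESeq2 calls, the regions with an unadjusted p under 0.05 in edgeR and all 7013 regions, with a grey line at 50%. All 3 curves are lower at the widest than at the shortest distance, from 100%, 88.6% and 59.4% under 1 kb to 51.0%, 50.2% and 50.3% at 100 to 1000 kb.

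The regions were also grouped by annotation, as a description with no test between classes. Promoter regions made up 22.2% of the 7013 regions, introns 44.5% and intergenic regions 26.3%. DESeq2 called 64 of 1559 promoter regions (4.11%; 18 toward BALB/cJ and 46 toward C57BL/6J), 218 of 3120 intronic (6.99%; 82 and 136) and 179 of 1846 intergenic regions (9.7%; 80 and 99). The share was lowest in promoters among these 3 classes and was 7.22% over all classes. Within 1 kb of a start site 34.1%, 19.2% and 17.5% of 2486 regions had alleles over 2-fold apart in animals 1, 2 and 3, against 42.3%, 32.9% and 27.3% of 2389 regions at 10 to 100 kb. Promoters had larger sums, and the order was therefore also read at sums of 120 to under 240. There the shares were 32.5%, 18.3% and 15.7% within 1 kb (804 regions) and 36.6%, 26.8% and 22.8% at 10 to 100 kb (725 regions), higher at 10 to 100 kb in 3 of 3 animals. With 3 animals, a two-sided exact test over animals cannot go below a p of 0.25, and none was made.

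**Figure D5:**
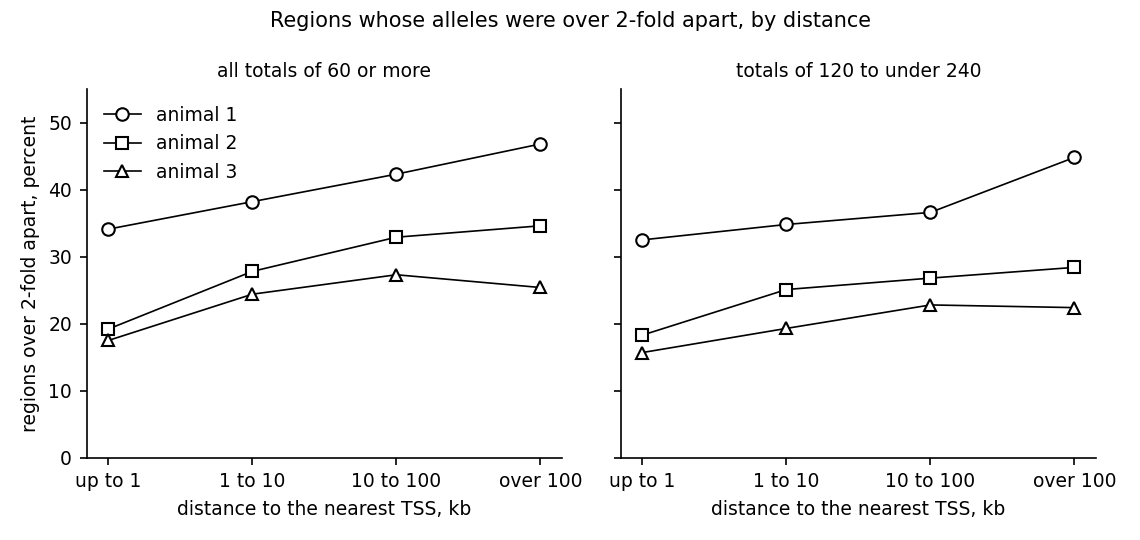
Percent of regions whose alleles were over 2-fold apart in an animal (y axis) by distance to the nearest start site (x axis, kb), for all 7013 regions (left) and for those with sums of 120 to under 240 (right); each line is 1 of the 3 animals. In each animal the share within 1 kb is lower than at 10 to 100 kb, and animal 1 lies above the others throughout.

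Called regions were found on every autosome. The share called ran from 3.77% on chromosome 2 (16 of 424) to 10.9% on chromosome 14 (29 of 265), where 23 were higher on C57BL/6J and 6 on BALB/cJ. Chromosome 17, which carries the histocompatibility complex, had 51 of 496 regions called (10.3%; 24 toward BALB/cJ and 27 toward C57BL/6J). The median log2 ratio lay between -0.05 and 0.08 on each chromosome. Informative regions were themselves unevenly placed. Of 1744 bins of 1 Mb with at least 20 regions, 535 (30.7%) had an allelic count in under 2% of their regions and 458 in over 30%. Regions accessible under control conditions and after LPS, the bacterial endotoxin, gave 426 calls of 5974 (7.13%), those from control peaks alone 29 of 427 (6.79%) and those from LPS peaks alone 51 of 612 (8.33%).

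Regions with 1 allele nearly silent were few. At most 3 counts over the 3 animals were found on BALB/cJ in 44 regions, 1 of them a promoter, and on C57BL/6J in 26, 2 of them promoters. Perfectly matching tags of any kind on the silent genome were under 10% of those on the other in 20 of the 44 and 14 of the 26. Repeats covered over 50% of the bases in 34 of 307 regions called toward C57BL/6J (11.1%), in 10 of 199 toward BALB/cJ (5.03%) and in 502 of all 7013 (7.16%). Among the regions named for their size, they covered 85.1% at the Gsr promoter, 70.6% at Gm17745 and 70.1% at the Tbl3 promoter. Near Tbc1d9 and at the Atp6v1b2 promoter they covered 62.7% and 61.2%. The part of repeats and of insertions or deletions in these ratios was not tested.

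The genes of Kupffer cell identity had 102 tested regions at 16 of 38 genes. DESeq2 called 6 of them (5.88%, against 7.22% of all regions), 2 toward BALB/cJ and 4 toward C57BL/6J, and the median log2 ratio was -0.04 (0.03 over all regions). Besides the 3 regions of Cd5l, these were regions of Cd38, Clec4f and Spic. At the promoter of Cd38, an NAD-consuming ectoenzyme, the counts were 21.5, 77 and 50 on BALB/cJ and 91, 204 and 133.5 on C57BL/6J (log2 -1.52 ± 0.18). Upstream of Clec4f, the C-type lectin that marks mouse Kupffer cells, they were 23, 26 and 46.5 against 9.5, 8 and 12 (log2 1.67 ± 0.29). In intron 1 of Spic, a factor of iron-recycling macrophages, they were 21, 18.5 and 26.5 against 48, 113.5 and 52 (log2 -1.57). The identity genes thus held calls in both directions.

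Of 49 regions of class II antigen presentation genes, 5 were called (10.2%, against 7.22% of all regions). Of these, 4 were higher on C57BL/6J and 1 on BALB/cJ, where all regions gave 307 and 199, and the list's median log2 ratio was -0.06. The label H2-Ea-ps is not in this list, so its called region, higher on BALB/cJ, is not among the 49. An intron of H2-Eb1, the beta chain of the E molecule, read 0, 0.5 and 1 on BALB/cJ and 33, 31.5 and 28.5 on C57BL/6J, and an intron of H2-DMb1, a peptide-loading chaperone, 0, 1 and 0 against 16, 32.5 and 25. H2-Ob, a chain of the inhibitor of that chaperone, had 2 regions in intron 1 higher on C57BL/6J and 1 at 11759 bp higher on BALB/cJ (22, 71.5 and 31.5 against 5.5, 11.5 and 4). The class II genes also differ between the strains at many bases, and their near-silent regions carry the same uncertainty as the class I exons. None of the 7 regions of H2-Ab1 was called, and the lowest p there was 0.158. Of 14 regions of the class I list, the H2-K1 exon was called (7.14%), with a median of 0.04. The list does not hold the label H2-L, so the called exon at nearly the same start site as H2-D1 is not among the 14. A region at -4887 bp from the start of H2-D1 read 44.5, 96 and 103 against 85.5, 210.5 and 180, a log2 ratio of -0.91 that stayed under 2-fold (DESeq2 adjusted p = 0.00354).

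Interferon response genes had 9 of 61 regions called (14.8%, against 7.22% of all regions) at 6 genes. Of these, 6 were higher on BALB/cJ and 3 on C57BL/6J (2.84% and 4.38% of all regions), the median log2 ratio was 0.2, and the difference from all regions was not tested. Upstream of Irgm2, an interferon-inducible GTPase, both called regions were higher on BALB/cJ, at 25, 52 and 34.5 against 7, 8 and 4.5 (log2 2.56 ± 0.36) and at 29.5, 43.5 and 17 against 3.5, 1 and 2.5. The receptor chains differed from each other: a region near Ifngr1 read 11, 25.5 and 15.5 against 1.5, 6 and 3, and one near Ifngr2 read 12.5, 23 and 14.5 against 29, 61.5 and 41.5. Ifi203, of a family of near-identical DNA sensors, and Rsad2, the antiviral viperin, each had 1 region called in either direction. Oasl1, an antiviral regulator of the oligoadenylate synthetase family, had 1 higher on BALB/cJ.

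Toll-like receptor and NF-kB genes had 3 of 48 regions called (6.25%). A region at -43344 bp from the start of Il1b was higher on BALB/cJ (19.5, 34 and 17 against 0, 5 and 2), and regions of Il12b and Tnfaip3 were higher on C57BL/6J, at log2 ratios of -2.22 and -1.32. Among chemotaxis and wound healing genes 2 of 53 were called, both higher on BALB/cJ: an intron of Tgfbr2, a TGF-beta receptor (50, 46.5 and 47.5 against 18.5, 11.5 and 18), and a region near the chemokine gene Cxcl1 (10, 19.5 and 29.5 against 2, 4 and 2). Niche signal genes had 2 of 36 called, the same Tgfbr2 region and one near Id2, an inhibitor of helix-loop-helix factors, which was higher on C57BL/6J (13.5, 35.5 and 17.5 against 42, 112.5 and 72).

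The remaining lists are small, and their counts are to be read against the 7.22% called over all regions. Lysosomal genes had 2 of 40 regions called, both promoters. That of Ctsl, the protease cathepsin L, read 29, 127 and 81.5 on BALB/cJ against 100.5, 260.5 and 238.5 on C57BL/6J (log2 -1.35 ± 0.18, DESeq2 adjusted p = 3.04e-06), and that of Atp6v1b2 was higher on BALB/cJ, as given above. Lipid handling genes had 3 of 40 called, all at Lgals3. AP-1, ATF and C/EBP genes had 1 of 41 called, near Batf3, a dimer partner of Jun (45.5, 90.5 and 60.5 against 12.5, 22 and 32). Leptin and STAT3 genes had 1 of 14 called, near the suppressor gene Cish (23, 36.5 and 18.5 against 51.5, 89.5 and 44). None was called among 29 regions of LXR target and sterol genes, where Abcg1, a cholesterol exporter, was nearest at a log2 ratio of -0.85 (44, 146 and 95 against 103.5, 210 and 194, DESeq2 adjusted p = 0.00753). None was called among 29 regions of complement and Fc receptor genes, 36 of iron handling genes or 13 of housekeeping genes, in which edgeR gave 0, 2 and 2 regions at an unadjusted p under 0.05. At this size a count of 0 does not set a list apart from the 7.22% of all regions.

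Of 11 genes the study discusses in Kupffer cells, 5 had tested regions (23 in all) and none was called by DESeq2 or blocked edgeR, with 3 regions at an unadjusted p under 0.05 in edgeR. A region at -131123 bp from the start of Cxcr4, the receptor of CXCL12, read 7, 18 and 18 on BALB/cJ and 19.5, 70.5 and 33.5 on C57BL/6J (log2 -1.41 ± 0.31, unadjusted p = 0.0109 and adjusted p = 0.162 in edgeR). In intron 4 of Lepr, the leptin receptor, the counts were 25, 56 and 46 against 36.5, 135.5 and 93 (log2 -0.93 ± 0.2, adjusted p = 0.159 in edgeR). Both regions, each the tested one of lowest p at its gene, were lower on BALB/cJ in 3 of 3 animals without passing the correction. The other tested regions of Cxcr4 went both ways, with log2 ratios of -0.25 at the promoter and 0.75 at -120534 bp. Those of Lepr were all below 0. In intron 1 of Cd40, a costimulatory receptor, they were 3, 16.5 and 12.5 against 15, 40.5 and 20 (adjusted p = 0.269 in edgeR). At the first exon of Nr1h3, the nuclear receptor LXR-alpha, they were 34.5, 48.5 and 42 against 18.5, 45.5 and 57.5, and the alleles overlapped.

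Genes known as imprinted, that is, active from the allele of 1 parent, were read for parent of origin. Whether they are imprinted in Kupffer cells was not tested, so an even ratio at them is no check of the alleles. The 23 genes active from the maternal allele had 8 tested regions and those active from the paternal allele had 0, and none was called, with the lowest unadjusted p at 0.149 in edgeR. At the Ube3a promoter, for example, the maternal BALB/cJ counts were 6, 69 and 44 and the paternal counts 17.5, 36.5 and 29.5. With sums of at least 20 allowed, 7 regions of paternally active and 18 of maternally active genes were tested, and blocked edgeR called none. That fit called 0 of 14789 regions of any kind (lowest adjusted p 0.244), so its count says nothing particular about imprinted genes. A promoter region of Mcts2, a retrogene active from the paternal allele, read 0, 0 and 0 on maternal BALB/cJ and 4.5, 13 and 11 on paternal C57BL/6J (unadjusted p = 0.0435 and adjusted p = 0.416 in edgeR). A region listed under Peg13, also paternal, read 1, 0 and 0.5 against 15.5, 11 and 6.5 (adjusted p = 0.29 in edgeR). By summed deposited counts, without a call, C57BL/6J had more in 5 of the 7 regions of paternally active genes. In the 18 regions of maternally active genes BALB/cJ had more in 12, C57BL/6J in 5, and the counts were equal in 1, the Gnas promoter region with identical counts. Most of the 18 lie at Tspan32 and Cd81, close together on chromosome 7.

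The C57BL/6J sequence of the 7013 regions was searched for motifs of macrophage factors on both strands. GAGGAAGT of PU.1 and other ETS factors occurred in 4.53% of all regions, in 2.01% of the 199 called higher on BALB/cJ and in 3.26% of the 307 called higher on C57BL/6J. For TGANTCA of AP-1 the shares were 8.98%, 6.03% and 6.51%, and for TTGCNNAA of C/EBP 8.66%, 5.53% and 7.17%. The IRF motif GAAANNGAA was in 7.74%, 8.04% and 10.7%, and GTGGGAA of RBPJ in 4.33%, 4.02% and 6.51%. The other motifs were TGCTGANNC of MAF (4.72%, 5.03% and 4.56%), CACGTG of MITF and TFE factors (5.05%, 4.52% and 3.91%), GGGANTTCC of NF-kB (1.37%, 1.51% and 1.3%) and CCACCAGGG of CTCF (0.414%, 0.503% and 0.326%). These shares are descriptions, and a letter match is not a binding site.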

How the data were processed

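Kupffer cells were sorted from 3 CB6F1/J animals and H3K27ac ChIP–seq was performed by the authors. Reads were aligned with Bowtie2 to the mm10 and BALB/cJ genomes, BALB/cJ positions were shifted to mm10 with MMARGE, and perfectly matching reads spanning a variant were kept. The deposited values are estimated counts (tags per region and allele, in steps of 0.5, not normalized). The regions span 200 bp, whereas the methods state a window of 1000 bp, and which width the counts cover is not known. Structural variants were not considered by the authors. Perfect-read counts from the same table served for checks; no other per-sample column was present in it (0), and hybrid input was not analysed here.

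Counts were rounded and tested with edgeR 4.0.16 (R 4.3.3), by its quasi-likelihood test, with TMM scaling, animal as block and allele as the tested term. Calls needed an adjusted p (Benjamini-Hochberg) under 0.05 with a |log2| above 1. DESeq2 1.42.0 was the alternative. Scripts were tested on simulated data. Columns of 1 number come from 1 animal; deviations of the alleles of 1 animal from the group means correlated at 0.157, 0.159 and 0.172.

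The members, lists and rules were chosen with earlier results of these data known. Named regions were the 8 widest and the 6 widest promoters per direction, the 6 genes per direction with most called regions, the 2 to 4 genes of lowest p per list, imprinted genes and genes the study discusses. Because edgeR called 0 regions, the ranking was applied to the DESeq2 calls, which was decided after the values were seen, as was the choice of printed sequences. Ratios per animal used normalized counts + 0.5. Sequences were read with samtools 1.23.1 from GRCm38.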

Additional observations from a re-analysis of the deposited data

Results flagged for a closer look

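Tags of the C57BL/6J allele on the X chromosome, which a male hybrid of this cross does not carry, lie outside the autosomal comparison. They made up 9.95% of the X-linked allelic tags in animal 1, 9.77% in animal 2 and 9.67% in animal 3, above the limit that a count of 0 allows. No group held 4 or more samples, so that no sample was examined as an outlier, and the animals belong to 1 group under 1 condition.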

How the results depend on the processing

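The paired edgeR test called 0 of 7013 regions, and the count was also 0 with RLE size factors, without scaling between the alleles, at sums of at least 20 or of at least 1, with counts rounded down, among regions at least 1000 bp apart, without any 1 animal, with the adjusted p alone, past 4-fold and without regions of identical counts. It was 442 with no replicate block, 506 with DESeq2, 60 at sums of at least 120, 5 of 127 regions with 6 whole values, and, in alternatives added after the data were seen, 146 with adjusted deviances, 130 without regions of counts within 1, 575 with DESeq2 and no replicate block, and 294, 105 and 140 with DESeq2 without animal 1, 2 and 3. The cause was not tested.

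Calls in promoters, introns and intergenic regions, all 0 in the paired edgeR test, were 58, 192 and 156 with no replicate block, 64, 218 and 179 with DESeq2, and 13, 18 and 24 at sums of at least 120. In the gene lists they were 31 with no replicate block and 34 with DESeq2. The median log2 ratio of 0.028 became -0.027 without scaling, 0.019 at sums of at least 20 and 0.017 at 120. Of regions with an unadjusted p under 0.05, 44.5% were higher on BALB/cJ, 39.0% without scaling and 40.4% to 43.2% leaving out 1 animal. Pairs 1 to 5 kb apart shared a direction in 83.5%, and in 92.6% past 4-fold. The X-linked C57BL/6J share of 9.77% was 11.7% at sums of at least 60. None of the 37 regions named for their size changed direction without the block, with DESeq2, without scaling or without an animal. They were chosen from the calls, which nearly fixed this outcome, so it is no measure of robustness. DESeq2 called 19 of the 37 in each of the 3 fits that left out an animal. Of all 103 named regions 7 changed direction, none of them called. Imprinted genes gave 0 calls in each edgeR setting tried, where the blocked fits called 0 regions of any kind and the fit without the block called 442. The alternative with hybrid input was not run.

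Depth and the spread between animals set the precision. With 3 animals and a median of 124 counts per region, DESeq2's median standard error at the lowest sums was 0.69 on the log2 scale. In a typical region there, ratios of 2-fold or less were thus not resolved. The variance between animals was on average 2.59 to 2.87 times the counting variance at low to high sums, with medians of 1.76 to 1.82. The cause of the X-linked C57BL/6J tags and of the identical counts was not tested.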
